A study of Mus musculus with 21 samples.

Results

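The regions described here were 2102 promoter sites at which the vitamin D receptor (VDR) was called in the colon, in the crypts and in the villi of the small intestine (SI) of the mouse. They were selected on the authors' pooled VDR peak lists, which hold 22882 colon, 12702 SI crypt and 18078 SI villus peaks. Of the colon peaks, 5696 overlapped a peak of both SI lists by at least 1 bp, and 2102 of these, 9.19% of the colon list, had their midpoint within 1 kb of the transcription start site (TSS) of a protein-coding gene in the mm9 genome. The sites had 2057 different nearest genes, and 2295 of 22367 protein-coding genes (10.3%) had such a site within 1 kb of their TSS. Because the pooled lists chose the sites, the VDR values below are descriptions and carry no test. ATAC-seq and DNA sequence were not inputs of the selection. The VDR peaks were called without an input control, however, so regional effects of open chromatin on the VDR signal were not removed.

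VDR is the nuclear receptor for 1,25-dihydroxyvitamin D3, 1,25(OH)2D3. With its partner RXR it binds a DR3 element, a pair of hexamer half-sites in the same direction separated by 3 bases. In the intestine it is best known for driving active calcium absorption and for switching on Cyp24a1, the enzyme that inactivates the hormone. A promoter is the stretch around a TSS where transcription is started, and it is usually open in more cell types than a distal enhancer.

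VDR ChIP-seq was done on 4 samples each of colon epithelium, duodenal crypts and duodenal villi from C57BL/6J mice labelled as 4 to 6 weeks old that had received 10 ng/g of 1,25(OH)2D3 for 1 h, with an anti-VDR antibody. ATAC-seq, which maps open chromatin, was done on 3 samples each of the same compartments from C57BL/6J mice labelled as 90 days old, which the study's methods describe as untreated adults on a chow diet. Those methods give an older age for the ChIP-seq mice than the labels do, and they name 2 anti-VDR antibodies used in differing mixtures, which the labels do not assign to samples. By those methods a single group of mice provided all 3 compartments, but the labels, whose isolation protocol speaks of 3 treated mice, tie no sample to a mouse, and no vehicle-treated ChIP-seq sample was analysed here, so binding without the hormone was not measured. ATAC-seq peaks lay at 5 of 5 general epithelial marker promoters in colon, 4 in crypt and 5 in villus, and at 0 of 5 T cell and 0 of 4 endothelial marker promoters in each compartment. Of the markers of B cells, myeloid cells, fibroblasts, smooth muscle and neurons or glia, 0 to 2 promoters per cell type had a peak in a compartment. Of the compartment markers, 6 of 10 colon genes had a peak in colon, 4 in crypt and 5 in villus. Of 8 crypt genes, 3 had one in colon, 7 in crypt and 6 in villus, and of 8 villus genes 3, 6 and 8 did in the same order, so many of these promoters were open outside their own compartment. The VDR samples had 10588783 to 17970894 fragments, of which 3100376 to 14716273 remained after filtering, and 1136 to 13381 peaks. The ATAC-seq samples had 14376006 to 38175468 filtered reads, counted singly rather than as fragments, and 21269 to 57825 peaks.

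DR3-like repeats lay under the summits of many of the strongest sites, and the following 8 are printed because they belong to sites with very high VDR signal or, for Cyp24a1, to the best known target of the hormone. Each is 29 bases of the strand that reads the repeat forwards, taken from the mm9 genome, with the hexamers in capitals, and each differs from a full DR3 (on both sides of a spacer of 3 bases the hexamer AGGTCA, the hexamer AGTTCA, the hexamer GGGTCA or the hexamer GGTTCA) at 1 or 2 of its 12 hexamer positions.
Ppox: gcctcagGGGTGAgcaGGTTCAagtctgg
Crat: ggtgctgGGGTCAgtgGGTTCGcggctcc
Agpat1: agtaccaGGGTCGcagGGTTCAagatggc
Nsun5: atttccgGAGTCAaagGGTTCGctgcttt
Phgdh: accactgGGGTCAgcgGGTTTGgccataa
Slc35f2: agaggcgGGGTCAgtgGGTTCTtccagtt
Clock: gtcacttGGGTCGtccAGGTCCatctcgg
Cyp24a1: agcccagGGTTCAgcgGGTGCGctgcgag
The Ppox repeat lay at chr1:173211237-173211265 on the + strand in an untranslated exon of Ppox, with its centre 66 bp downstream of the TSS and 2 bp from the colon summit. The Crat repeat (chr2:30270930-30270958, + strand) lay in an untranslated exon of Crat, and the Agpat1 repeat (chr17:34741241-34741269, + strand) in one of Agpat1, 2 and 3 bp from their summits. The Nsun5 repeat (chr5:135845742-135845770, - strand) was outside genes, 67 bp upstream of the TSS. The Phgdh repeat (chr3:98143550-98143578, + strand) lay in an intron 349 bp downstream, and those of Slc35f2 (chr9:53618922-53618950, + strand) and Clock (chr5:76734286-76734314, - strand) lay outside genes, at -406 and -483 bp from the TSS. The Cyp24a1 repeat, at chr2:170322898-170322926 on the + strand, was 267 bp upstream of the Cyp24a1 TSS, within an annotated intron of the neighbouring Pfdn4, and 2 bp from the summits in both colon and SI villus.

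A full DR3 within 100 bp of the colon summit was found at 18 of the 2102 sites. These 5 show the half-sites in their different combinations, at the genes for a glia maturation factor (Gmfb), a growth factor (Pdgfa), a chemokine (Ccl20), a Wnt coreceptor (Lrp5) and the enzyme that makes N-acetylglutamate for the urea cycle (Nags).
Gmfb: agccacgAGTTCActgGGTTCAatgaccg
Pdgfa: attaggcGGTTCActcGGTTCActgcaaa
Ccl20: taagtcaGGTTCAtaaAGTTCAccacatg
Lrp5: gtcagatGGGTCActgGGGTCAcggggac
Nags: ttagtgaGGGTCAcgaAGGTCAgatttag
They lay at chr14:47441181-47441209 (Gmfb, + strand, intron), chr5:139474141-139474169 (Pdgfa, + strand, an untranslated exon of the neighbouring 6330403L08Rik), chr1:83114029-83114057 (Ccl20, - strand, intron), chr19:3685877-3685905 (Lrp5, + strand, intron) and chr11:102006642-102006670 (Nags, - strand, outside genes). Of the 18 repeats, 10 were intronic, 4 were outside genes, 2 were in coding exons and 2 in untranslated exons. Among the half-sites of these repeats GGGTCA occurred 12 times, GGTTCA 10 times, AGGTCA 9 times and AGTTCA 5 times.

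The sites lay mostly just downstream of the TSS, which was taken as the outermost annotated start of each gene. A peak at a start farther inside a gene therefore counts as downstream. The midpoint was downstream of the TSS at 1512 sites, upstream at 589 and on it at 1, with a median of 202 bp downstream and quartiles of -35 and 436 bp. Within 500 bp of the TSS lay 76.5% of the sites, against 69.6% of the 2487 colon promoter peaks that were not shared with both SI lists, and within 100 bp 15.3% against 9.77%. Nearest to the threshold on the inside were the sites of Pex16, Pafah1b1 and Abhd3 at 996, 998 and 1000 bp, with colon fold enrichments of 3.35, 5.11 and 5.05. Just outside lay the shared peaks of Ticam1, Extl2 and Zfp236 at -1002, 1005 and 1006 bp, with fold enrichments of 2.104, 9.78 and 16.3.

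**Figure D1:**
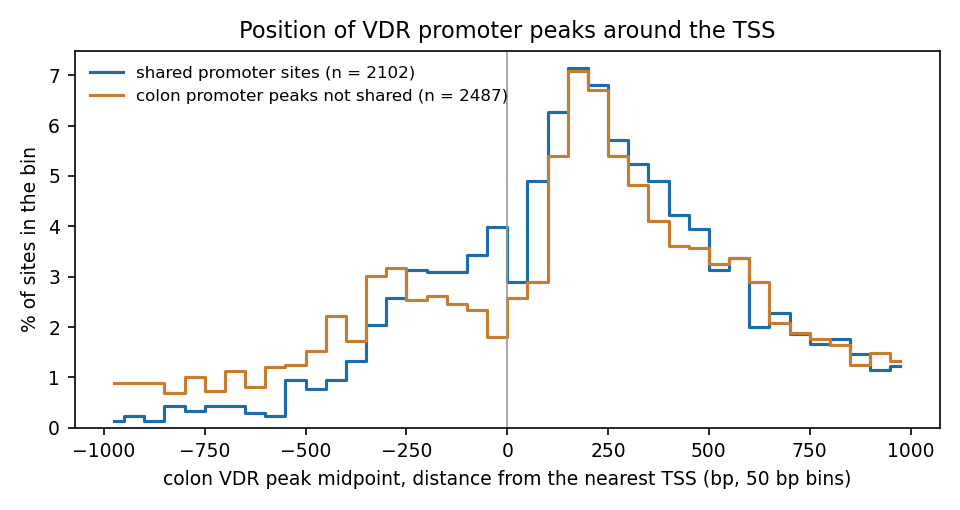
Percentage of sites by the distance of the colon VDR peak midpoint from the nearest protein-coding TSS (x axis in bp, negative upstream, 50 bp bins) for the 2102 shared promoter sites and the 2487 colon promoter peaks that were not shared. Most sites of both classes lie downstream of the TSS, with the median shared site 202 bp downstream and 76.5% of the shared sites within 500 bp.

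Of the 4589 colon promoter peaks, 45.8% overlapped a peak of both SI lists, against 19.6% of distal colon peaks. A site had 2 or more TSSs within 1 kb in 242 cases (11.5%), against 10.1% of unshared colon promoter peaks and 8.33% of promoters without VDR. A divergent TSS pair was present at 140 sites (6.66%), against 6.19% of unshared colon promoter peaks and 4.73% of promoters without VDR. In the 200 bp around the summit the sites had a median GC content of 65%, against 52% for the 3594 shared distal sites and 59% for all protein-coding promoters, which were read around the TSS. The ratio of observed to expected CpG dinucleotides had a median of 0.78 at the sites, 0.24 at shared distal sites and 0.61 at all promoters. How base composition bears on the recovery of fragments was not tested.

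By the pooled lists the sites were above the middle of each list but below the shared distal sites. The median fold enrichment over local background, as MACS2 gives it, was 4.06 in colon, 4.64 in crypt and 4.92 in villus, against 4.53, 4.79 and 5.05 at shared distal sites. Of the sites, 20.4% were in the strongest 10% of the colon list, 14.6% in that of SI crypt and 21.03% in that of SI villus, against 32.4%, 23.6% and 30.9% of shared distal sites. The strongest 10% of all 3 lists held 213 of the sites. Across the 2102 sites, which are not independent replicates and share local background and width, the -log10 q of colon had a Spearman correlation of 0.65 with that of SI crypt and 0.64 with that of SI villus, and SI crypt one of 0.70 with SI villus. The 3 summits of a site lay within 50 bp of each other at 546 sites (26.0%), and their median span was 113 bp.

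The 10 sites whose weakest standing among the 3 lists was best were those of Ppox, Crat, Agpat1, Nsun5, Ppp1r15b, Muted, Gmnn, 2200002K05Rik, Phgdh and Pcbp2, and all 10 were called in 12 of 12 VDR samples. Ppox encodes protoporphyrinogen oxidase, a late enzyme of heme synthesis, and its site had pooled fold enrichments of 21.9 in colon, 24.1 in crypt and 27.8 in villus. In single samples the Ppox site had fold enrichments of 10.4, 24.5, 16.4 and 23.7 in colon, 25.4, 31.8, 17.1 and 17.4 in crypt, and 33.5, 32.9, 20.3 and 13.7 in villus. The ranges of the 3 compartments overlapped at Ppox, with the lowest value in a colon sample and the highest in a villus sample.

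Crat encodes carnitine acetyltransferase, which exchanges acetyl groups between carnitine and coenzyme A. Its site had fold enrichments of 9.04, 23.1, 21.2 and 25.6 in the colon samples, 33.9, 37.3, 20.5 and 23.0 in the SI crypt samples, and 39.99, 45.4, 25.9 and 20.1 in the SI villus samples. The values of Nsun5, an RNA cytosine methyltransferase that acts on ribosomal RNA, were 15.9, 30.2, 17.8 and 25.0 in colon, 34.4, 36.8, 19.1 and 21.8 in crypt, and 40.7, 43.6, 24.2 and 24.1 in villus. At both sites replicates 1 and 2 of the SI compartments were above replicates 3 and 4, and the colon range overlapped that of each SI compartment. The Phgdh site, at the gene for the first enzyme of serine synthesis, had 9.09, 20.3, 16.1 and 22.9 in colon, 32.1, 35.2, 16.5 and 19.3 in crypt, and 38.2, 39.8, 21.7 and 20.3 in villus. Pcbp2, which encodes a poly(C)-binding RNA regulator, had fold enrichments of 8.17, 15.9, 10.3 and 21.7 in colon, 32.4, 33.6, 11.3 and 12.6 in crypt, and 36.2, 42.9, 10.6 and 8.17 in villus. Gmnn encodes geminin, which prevents DNA from being replicated more than once per cell cycle, and its site had 14.8, 20.5, 13.8 and 16.8 in colon, 26.2, 30.2, 13.9 and 16.1 in crypt, and 34.6, 37.3, 17.5 and 16.3 in villus. The same split between replicates 1 and 2 and replicates 3 and 4 of the SI compartments stood out at Phgdh, Pcbp2 and Gmnn.

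**Figure D2:**
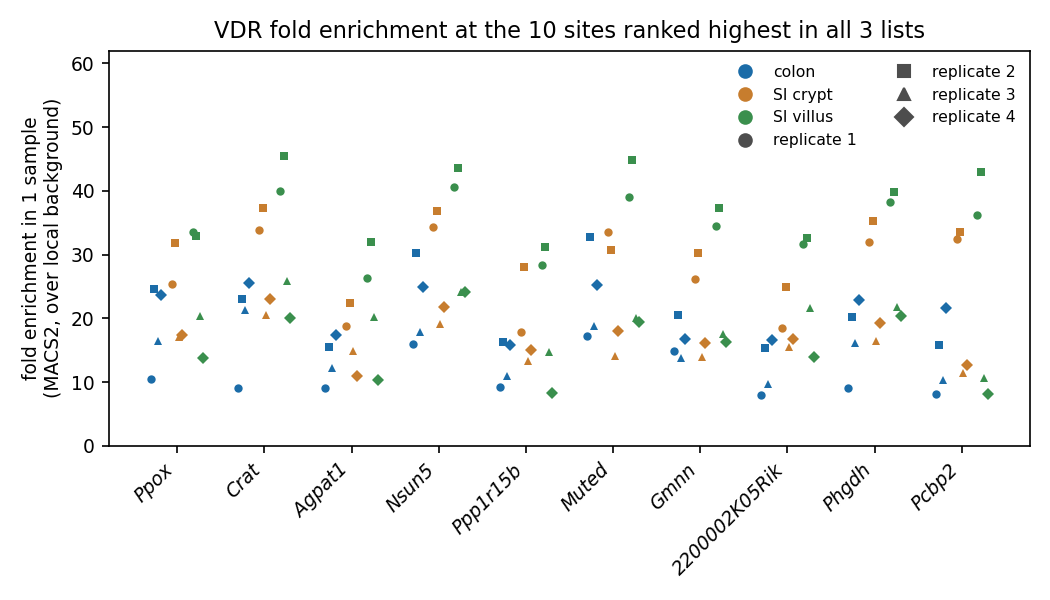
VDR fold enrichment over local background (y axis, MACS2) in each of the 12 ChIP-seq samples at the 10 sites ranked best in all 3 pooled lists, with colour for the compartment and marker shape for the replicate. SI replicates 1 and 2 sit above SI replicates 3 and 4 at most of these sites, and colon replicate 1 is low at Ppox (10.4) and Crat (9.04).

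The split of the SI compartments was also seen in the medians of the 62 sites called in all 12 samples. These 62 include the 10 sites above and were chosen by calls in the same samples, so they are no separate check. Their median fold enrichment was 7.77, 15.5, 10.9 and 15.9 in colon replicates 1 to 4, 17.7, 19.1, 9.45 and 12.7 in crypt, and 23.0, 25.8, 10.5 and 11.6 in villus. The ranges of the 3 compartments overlapped, with the lowest median in a colon sample. Which samples share an antibody mixture, a day or a mouse is not given by the labels, and its part in the split was not tested.

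The SI samples also differed in how many sites they called. In SI crypt, 85.5% of the sites were called in replicate 1 and 16.4%, 7.94% and 20.8% in replicates 2 to 4. In colon the shares were 12.2%, 33.4%, 45.4% and 64.6%, and in villus 66.9%, 52.6%, 8.71% and 38.0%. SI crypt replicate 1 thus stood far above the other crypt samples, and it called 13381 peaks in all from 3100376 fragments left after filtering, the most peaks from the fewest fragments of the 12 samples. Of the sites, 1265 (60.2%) were called in that crypt sample and in no other one, and 573 sites (27.3%) were called in another crypt sample, against 1605 (44.7%) of the shared distal sites.

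**Figure D3:**
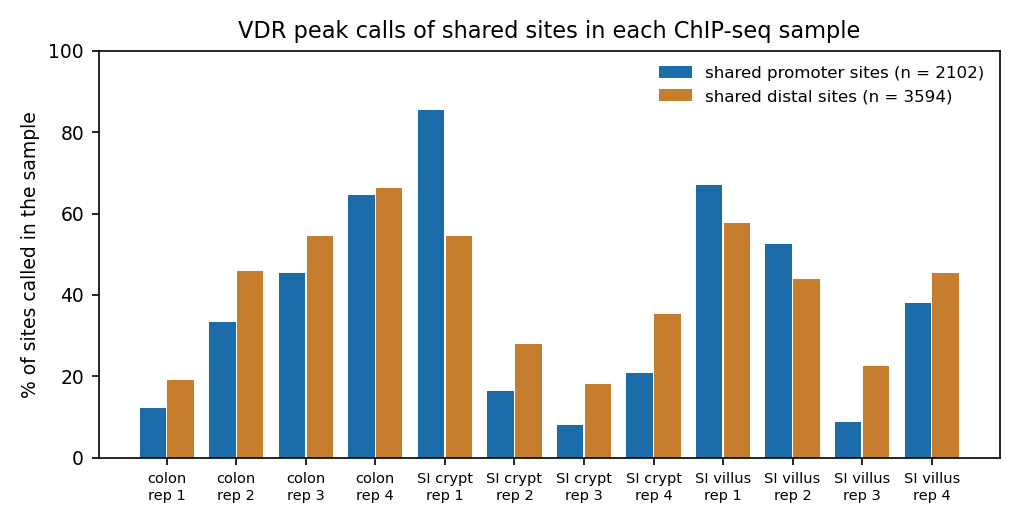
Percentage of the 2102 shared promoter sites and of the 3594 shared distal sites that overlapped a peak called in each VDR ChIP-seq sample (x axis, compartment and replicate). SI crypt replicate 1 called 85.5% of the promoter sites, against 7.94% to 20.8% in the other crypt samples.

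A site was called in a median of 4 of the 12 samples. At least 1 sample of each compartment called 1244 sites (59.2%), at least 2 of each called 407 (19.4%), and 50 (2.38%) were called in no single sample and appeared only after pooling. At least 2 samples of each compartment called 23.1% of the shared distal sites. Among the sites called in all 12 samples was the site of Muc3, which encodes a membrane mucin of enterocytes. Its peak was 2048 bp wide, and its fold enrichments were 8.99, 8.12, 6.54 and 8.37 in colon, 7.89, 8.55, 6.62 and 6.75 in crypt, and 6.55, 5.68, 7.25 and 6.63 in villus. The 12 values at Muc3 thus lay closer together than those of the sites above, and the ranges of the compartments overlapped.

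Some sites stood much higher in one list than in the others. Sema3f, the gene for a secreted semaphorin, had fold enrichments of 10.0, 7.30 and 9.35 in colon replicates 2 to 4 and was called in no SI sample. In the other direction, the site of Dck, the gene for deoxycytidine kinase, was called in no colon sample, in crypt replicate 1 (11.5) and in villus replicates 1 and 4 (7.205 and 4.65). The Sephs2 site, at a gene for selenium use, had pooled fold enrichments of 2.43 in colon, 5.33 in crypt and 4.80 in villus. These sites were shared by the pooled lists although no colon sample called those of Dck and Sephs2 and no SI sample called that of Sema3f.

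The Cyp24a1 promoter held 2 of the sites, and both overlapped the same peak of each SI list, as happened with another site for 60 sites in crypt and 57 in villus. The main one had its midpoint 269 bp upstream of the TSS and pooled fold enrichments of 3.94 in colon, 5.44 in crypt and 10.3 in villus. In single samples its fold enrichments were 6.94 and 4.90 in colon replicates 2 and 4, 8.48, 16.3 and 3.62 in crypt replicates 1 to 3, and 18.0, 33.7, 6.89 and 1.81 in the SI villus samples, and it was not called in the other 3. The ranges of the compartments overlapped. The other Cyp24a1 site, 149 bp downstream, had a colon fold enrichment of 1.56, the lowest of all 2102 sites.

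Of the 17 genes listed for vitamin D metabolism and calcium transport, 3 had a site: Cyp24a1, Atp2b1 and Slc30a10. Atp2b1, the calcium pump of the basolateral membrane, had fold enrichments of 4.37, 3.11 and 6.16 in colon replicates 2 to 4, 8.18 and 8.11 in crypt replicates 1 and 2, and 13.3 and 11.5 in villus replicates 1 and 2. Slc30a10, a manganese exporter, was called in no colon sample, in crypt replicate 1 (7.30) and in villus replicates 1 and 2 (3.99 and 3.92). Trpv6 and S100g, the apical calcium channel and the cytosolic calcium buffer of absorption, had no site within 1 kb of their annotated TSS, and neither had Vdr itself.

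The 18 lists of genes were read against the 10.3% of all protein-coding genes that had a site, and no test was made of them. The lowest share among the lists was 13.5%. Of the promoters without a VDR peak, 64.7% had no pooled ATAC-seq peak in any compartment, against 5.80% of the sites. The share among open promoters alone was not computed, so a list above 10.3% is not shown to be favoured by VDR. In zinc transport and metallothioneins 8 of 22 genes (36.4%) had a site. Slc30a9, a mitochondrial zinc exporter, led this list with fold enrichments of 5.45, 9.82, 8.85 and 14.9 in colon, 9.39, 7.42 and 5.86 in crypt replicates 1 to 3, and 12.7, 13.2 and 5.43 in villus replicates 1 to 3. Slc39a4, the zinc importer of the enterocyte apical membrane, had 5.12, 7.27, 6.95 and 3.84 in colon, 7.04, 3.88 and 5.57 in crypt replicates 1, 3 and 4, and 6.02, 4.56 and 8.04 in villus replicates 1, 3 and 4. Mt1 and Mt2, neighbouring metallothionein genes that bind zinc, had pooled colon fold enrichments of 3.55 and 5.20. When the sites were limited to those called in an SI crypt sample other than replicate 1, 6 of the 22 zinc genes kept one, and 2.84% of all genes did.

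Among metabolic lists, the citrate cycle had a site at 9 of 21 genes (42.9%), of which Fh1, fumarate hydratase, had the highest colon -log10 q. The Fh1 site had fold enrichments of 10.1, 8.89 and 12.1 in colon replicates 2 to 4, 7.90, 10.5 and 6.25 in crypt replicates 1, 2 and 4, and 10.8, 7.60 and 8.13 in villus replicates 1, 2 and 4. Heme synthesis, transport and breakdown had 7 of 19, led by Ppox, with Urod, another enzyme of the heme pathway, at a pooled colon fold enrichment of 4.71. The carnitine shuttle and fatty acid oxidation had 6 of 23, led by Crat, with Eci1, an enzyme of unsaturated fatty acid oxidation, at 7.06. NADH dehydrogenase subunits had 5 of 37 and proteasome subunits 5 of 31, shares of 13.5% and 16.1%. With sites called in another crypt sample alone, 4 citrate cycle genes, 2 heme genes, 2 carnitine and fatty acid genes, 1 NADH dehydrogenase gene and 0 proteasome genes kept one.

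Cytosolic ribosomal protein genes had a site in 33 of 81 cases (40.7%), none of them in the strongest 10% of the colon list, and their median colon fold enrichment was 3.22. Mitochondrial ribosomal protein genes had one in 17 of 76 cases (22.4%), led by Mrps30 with 7.94 in colon, 7.89 in crypt and 8.34 in villus. Ribosomal RNA and transfer RNA modification genes had 5 of 30. In another crypt sample 12 cytosolic ribosomal protein genes, 3 mitochondrial ones and 4 RNA modification genes kept their site.

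For growth arrest and apoptosis 10 of 24 genes (41.7%) had a site. Gadd45g, a stress-induced brake on the cell cycle, had its stronger site -905 bp from the TSS with pooled fold enrichments of 8.55 in colon, 7.04 in crypt and 6.44 in villus. Of the immediate early genes 6 of 21 had a site, among them Zfp36, which encodes an mRNA decay factor and was called in all 12 samples. Its fold enrichments were 5.68, 4.28, 4.08 and 4.30 in colon, 5.52, 4.47, 4.49 and 4.30 in crypt, and 4.97, 5.60, 4.32 and 4.13 in villus, with overlapping ranges in the 3 compartments. In another crypt sample 4 growth arrest and 2 immediate early genes kept a site.

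Tight junction and scaffold genes had a site in 8 of 21 cases, including the claudins Cldn3, Cldn4, Cldn7, Cldn15 and Cldn23, and Ocln, which encodes occludin. Circadian clock genes had 6 of 19, led by Clock, a transcription factor at the core of the clock, with 6.47, 14.3, 11.1 and 18.5 in colon, 21.1, 18.5 and 11.7 in crypt replicates 1, 2 and 4, and 29.9, 31.0, 10.8 and 12.9 in villus. Chaperones had 7 of 21, among them Hspa1a and Hspa1b, near-identical heat shock genes between which reads cannot be assigned with certainty. Lysosome and autophagy genes had 7 of 29, nuclear receptors and cofactors 7 of 34, and intestinal transcription factors 5 of 26. The last list included Cdx2, a regulator of intestinal identity, with a pooled colon fold enrichment of 3.47 at the stronger of its 2 sites. In another crypt sample 2 tight junction, 3 clock, 2 chaperone and 1 lysosomal gene kept a site, as did 1 intestinal transcription factor and 0 nuclear receptors and cofactors.

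DNA sequence was not an input of the selection, but the windows were centred on the summits of called VDR peaks. The shares are thus a description of those summits. In the 200 bp centred on the colon summit a full DR3 occurred at 18 sites (0.856%, 95% Wilson interval 0.542 to 1.35), against 4.59% of shared distal sites, 0.322% of unshared colon promoter peaks and 6 of 22367 promoters read at the TSS (0.0268%). Both strands were searched, and the intervals cover counting error only. Of the direct repeats with spacers from 0 to 8 bases, the spacer of 3 was the most frequent at the sites with 18, followed by a spacer of 1 with 9, of 4 with 8 and of 5 with 7. Allowing 1 mismatch raised the DR3 share to 6.71% of the sites, 19.0% of shared distal sites and 0.961% of all promoters.

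DR3-like repeats were concentrated at the summit and at the strong sites. A repeat with at most 2 mismatches had its centre within 20 bp of the colon summit at 218 sites (10.4%), against a mean of 2.71% in equal windows of the flanks of the same sites, 26.0% at shared distal sites and 2.37% at the TSS of all promoters. The sites were put in order of colon -log10 q and cut in equal classes: in the 421 strongest the share was 25.7% with 2.88% in their flanks, and in the 420 weakest it was 3.57% with 2.23% in the flanks. Around the SI crypt summits the share over all sites was 13.6%, and around the SI villus summits it was 14.8%. Of the 18 sites with a full DR3, 17 were in the strongest class.

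**Figure D4:**
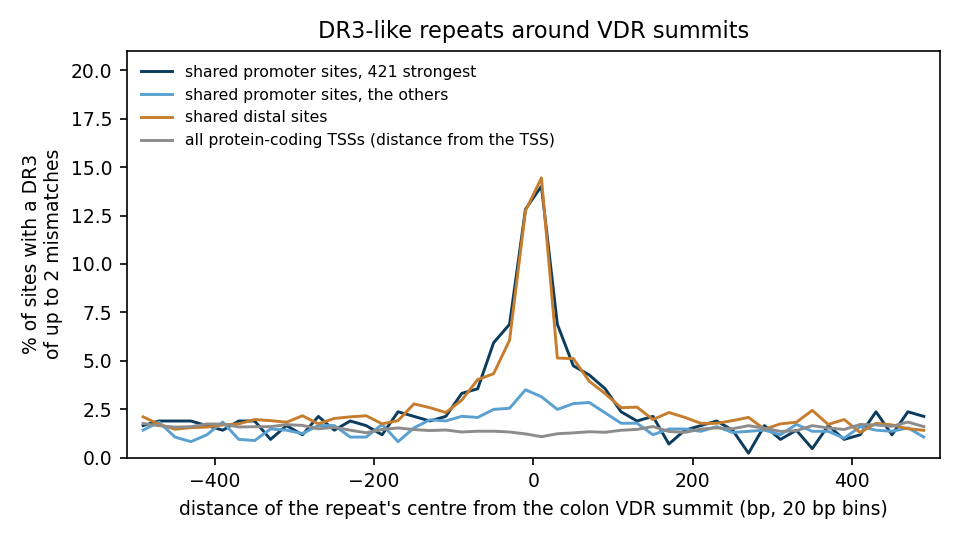
Percentage of sites with a DR3 of at most 2 mismatches by the distance of its centre from the colon VDR summit (x axis in bp, 20 bp bins), for the 421 strongest shared promoter sites, the other shared promoter sites, the shared distal sites and, around the TSS, all protein-coding promoters. In the bin starting at 0 bp the strongest promoter sites reach 14.01%, the shared distal sites 14.4% and the other promoter sites 3.15%. The other promoter sites have 3.51% in the bin starting at -20 bp.

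The 218 sites with such a repeat also had VDR summits that lay closer together across compartments. All 3 summits lay within 50 bp at 63.8% of them, against 21.6% of the 1884 other sites, and the median span was 27 against 122.5 bp. Their median colon fold enrichment was 6.06 against 3.93, and 27 of them against 35 of the others were called in all 12 samples. A pooled colon ATAC-seq peak was present at 78.4% of them and at 85.7% of the others. Of the 218 sites, 108 were among the 421 strongest, and sites with and without a repeat were not compared at equal strength.

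Sites with a full DR3 differed in the samples that called them. Gmfb had 8.41, 13.3, 12.7 and 19.0 in colon, 10.2, 24.2, 14.5 and 18.9 in crypt, and 20.02, 17.1, 13.6 and 14.7 in villus. Pdgfa had 6.28, 11.5, 9.39 and 14.9 in colon, 17.9, 22.3, 10.2 and 15.3 in crypt, and 25.4, 24.6, 11.1 and 11.7 in villus. The ranges of the compartments overlapped at both. Ccl20 had 10.6, 12.2, 5.85 and 7.997 in colon, 6.03 and 9.29 in crypt replicates 3 and 4, and 6.36 in villus replicate 4, so this site of a chemokine gene was called least often in the villus. Lrp5 was called in 3 colon samples (5.96, 6.46 and 10.9 in replicates 2 to 4), in crypt replicates 1 and 2 (10.7 and 7.64) and in villus replicates 1, 2 and 4 (18.6, 19.5 and 8.40).

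In windows of 200 bp each of the other 13 motifs was found at a smaller share of the sites than of all promoters. The ETS motif (CCGGAAGT) was found at 3.14% of the sites and 4.19% of all promoters, the SP/KLF motif (GGGGCGGGG) at 5.14% and 11.8%, the NFY motif (CCAATCA) at 1.71% and 6.20%, and TATAAA at 2.09% and 8.19%. The AP-1 motif (TGANTCA) was found at 2.33% of the sites and 9.02% of shared distal sites, and the HNF4 motif (CAAAGNCCA) at 0.809% and 3.20%. These windows were centred on the VDR summit at the sites and on the TSS at all promoters, both strands were searched, and motifs could overlap. In windows of 400 bp the direction turned for ETS (6.57% of the sites and 5.32% of all promoters), YY1 (AAGATGGCG, 3.04% and 2.58%), CREB (TGACGTCA, 2.52% and 2.42%) and the E-box (CACGTG, 10.04% and 8.80%). Of the sites, 1561 (74.3%) held none of the 14 motifs searched within the 200 bp window.

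Open chromatin was present at most of the sites. A pooled ATAC-seq peak overlapped 85.0% of them in colon, 86.7% in crypt and 89.8% in villus, against 41.9%, 44.8% and 45.1% of all colon VDR peaks. In all 3 compartments a peak was present at 1653 sites (78.6%), and in none at 122 (5.80%). In single samples the shares were 73.5%, 76.7% and 79.6% in colon, 74.3%, 70.9% and 75.2% in crypt, and 87.2%, 81.9% and 62.5% in villus. The mean was 76.6% ± 3.07 in colon, 73.4% ± 2.26 in crypt and 77.2% ± 12.99 in villus (SD, n = 3 each).

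Between compartments the ranges of the shares overlapped. The difference was 3.17 points for colon minus SI crypt (two-sided exact permutation p = 0.3, 0.9 after Benjamini-Hochberg adjustment over the 3 pairs), -0.59 for colon minus SI villus (exact permutation p = 1, adjusted 1) and -3.76 for SI crypt minus SI villus (exact permutation p = 0.7, adjusted 1). With 3 samples against 3 the smallest p possible is 0.1, so that no difference could pass the threshold of 0.05. When the same number of strongest peaks was kept in each sample, colon lay above crypt by 15.7 points and above villus by 13.04 points, with no overlap between the samples (exact permutation p = 0.1 each, the smallest possible, adjusted 0.15). Colon also lay above crypt without overlap, by 13.1 points, when the site midpoint had to be inside the ATAC-seq peak, and by 7.68 points at an ATAC-seq -log10 q of at least 5 (exact permutation p = 0.1 each, adjusted 0.3).

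Against the other classes of regions the difference was larger than the spread between samples. Within each of the 9 ATAC-seq samples the share of the promoter sites exceeded that of the shared distal sites, by 22.9 to 41.8 points (75.7% against 43.6% on average, difference 32.1 ± 5.90, SD, n = 9; two-sided exact sign-flip permutation p = 0.00391, the smallest this design allows, adjusted 0.00586). It exceeded the share of the 15467 promoters without a VDR peak, read as intervals of 475 bp at the TSS, by 41.5 to 59.0 points (75.7% against 25.6%, difference 50.2 ± 5.98, SD, n = 9; exact sign-flip permutation p = 0.00391, adjusted 0.00586). When the site midpoint had to be inside the ATAC-seq peak, the difference was 11.2 points against shared distal sites and 17.6 points against promoters without VDR (exact sign-flip permutation, adjusted p = 0.0117 each). How many of those promoters belong to genes that are silent in these cells was not tested. They were also defined by having no VDR peak, and VDR peaks were called without an input control. The classes were thus not chosen independently of open chromatin, and how far this bears on the differences was not tested. Unshared colon promoter peaks lay between, with 54.4%, 51.5% and 55.3% on average in colon, SI crypt and SI villus.

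Where an ATAC-seq peak was present, its strength differed less. The median percentile rank of the peaks by fold enrichment within a sample was higher at the sites than at promoters without VDR in 8 of 9 samples, by 3.21 percentile points on average (77.7 against 74.5, range of the difference -0.44 to 5.94, n = 9; exact sign-flip permutation p = 0.00781, adjusted 0.00781). The difference was -0.78 (exact permutation p = 0.566) when the same number of strongest peaks, 21269, was kept in each sample, and 0.60 (exact permutation p = 0.473) at the sites called in another SI crypt sample than replicate 1.

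**Figure D5:**
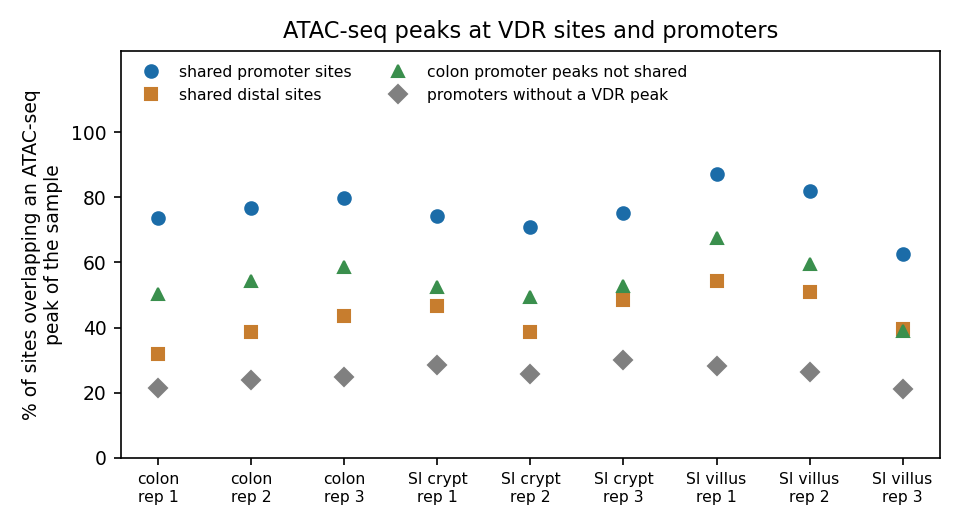
Percentage of the shared promoter sites, the shared distal sites, the unshared colon promoter peaks and the promoters without a VDR peak that overlapped an ATAC-seq peak of each sample (x axis, compartment and replicate). The promoter sites lie between 62.5% and 87.2% and are the highest class in each of the 9 samples.

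The sites without a pooled ATAC-seq peak lay farther from the TSS. The 122 sites with none in any compartment had a median distance of 584.5 bp from the TSS and 62.3% of them were over 500 bp away, against 236 bp and 15.4% of the 1653 sites with a peak in each compartment. Hcn3, a gene for a pacemaker channel, had the highest colon -log10 q among the 122, and its site had fold enrichments of 7.21, 15.5, 12.6 and 14.5 in colon, 21.7, 20.2, 7.94 and 12.2 in crypt, and 19.2, 19.6 and 12.8 in villus replicates 1, 2 and 4. Slfn5, an interferon-responsive gene, had 8.25, 9.65 and 13.8 in colon replicates 2 to 4, 22.5, 14.6, 11.5 and 14.04 in crypt, and 24.7, 18.8, 9.33 and 15.9 in villus. Both sites thus had VDR calls in at least 3 samples of each compartment and no pooled open-chromatin peak, although 1 crypt ATAC-seq sample called one at Slfn5. Cldn15, which forms cation pores in tight junctions, Gnb2l1 and Fam63a, the last called in 1 villus sample, were further examples in the pooled lists. Slc25a45, Serp2, Bard1, Ocrl and Pja1 lacked a peak in the pooled colon list alone, and 1 colon sample called one at Bard1. The ChIP-seq mice had received the hormone and the ATAC-seq mice had not, so treatment and assay cannot be told apart in this comparison.

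The authors also deposited sets of regions whose VDR signal differed between compartments, as positions only, and 81 of the sites (3.85%) fell in at least one, against 9.46% of shared distal sites and 6.31% of all colon peaks. The set higher in villus than colon held 44 sites (2.09%), against 5.68% of shared distal sites and 1.15% of all colon peaks. The set higher in crypt than colon held 17 (0.809%), against 3.28% and 0.634% of the same classes. The set higher in colon than SI villus held 19 (0.904%), against 2.28% and 4.08%. The set higher in colon than SI crypt held 5 (0.238%), against 0.863% and 2.49%. These sets were made from the same samples as the selection and are a description, and the study states the cutoff behind them in more than one way, so that it is not known which one the counts refer to. The set higher in crypt than SI villus held 20 sites (0.951%) and 7 shared distal sites (0.195%), against 0.363% of all colon peaks. The reverse set held 0 (0% of all colon peaks), its 5 regions overlapping no colon peak.

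Most of the 20 sites in the set higher in crypt than SI villus, which has 80 regions in all, were at histone or ribosomal protein genes. Of its 20 sites, 10 were at histone genes, of 21 histone-gene sites in all, and 6 were at cytosolic ribosomal protein genes, of 33 in all. H2afx had more than 1 of these sites, with the same pooled crypt fold enrichment of 4.68, and Hist1h2an and Hist1h2bp shared one of 5.81. The histone sites may thus not all be separate crypt peaks. The histone grouping was chosen after the names were seen. Hist1h1d, a linker histone gene, had fold enrichments of 8.13, 7.51, 9.84 and 8.05 in colon, 9.59, 6.10, 6.35 and 7.09 in crypt, and 5.38 and 7.28 in villus replicates 1 and 4. Hist1h2bg, a core histone gene, had 5.93, 5.77, 7.78 and 4.62 in colon, 6.42, 4.79, 4.29 and 4.93 in crypt, and 5.55 and 5.15 in villus replicates 1 and 2. Both sites were called in every colon and crypt sample and in 2 villus samples. Histone genes of this cluster have near-identical copies, so reads at them are uncertain.

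The set higher in villus than colon held the strong sites of Crat and Nsun5 among its 44. It also held those of Acsl5, an acyl-CoA synthetase, and Rbp2, the retinol-binding protein of the enterocyte, which were picked out after their values were seen because the pooled fold enrichment ran the other way. Such a reversal was found at 5 of the 44 sites of this set, at 3 of 17 higher in crypt than colon, at 8 of 19 higher in colon than villus, at 3 of 5 higher in colon than crypt and at 0 of 20 higher in crypt than villus. Rbp2 had a pooled fold enrichment of 6.50 in villus, against 12.4 in colon, and in single samples 15.6, 21.4, 3.58 and 3.57 in villus, against 7.12, 12.98, 6.49 and 13.3 in colon. Acsl5 had a pooled value of 4.41 in villus, against 10.4 in colon, and in single samples 6.97, 7.95, 3.51 and 2.65 in villus, against 4.59, 8.46, 5.61 and 10.9 in colon. The villus and colon ranges overlapped at both. Tcfe3, which encodes the lysosomal regulator TFE3, was called in no colon sample, in crypt replicates 1 and 4 (14.8 and 7.05) and in villus replicates 1, 2 and 4 (24.6, 21.7 and 10.6). Chchd1, a gene for a mitochondrial ribosome component, had 7.54, 5.61 and 9.04 in colon replicates 2 to 4, 20.6, 17.3, 6.97 and 7.79 in crypt, and 26.6, 31.4, 7.54 and 12.0 in villus. The SI ranges overlapped at Tcfe3, and at Chchd1 the range of colon overlapped that of both SI compartments. The 5 sites higher in colon than SI crypt were those of 4931406C07Rik, Prdx6, Abcb1a, Cnnm3 and Ceacam1, of which Prdx6 (3.27 in colon, 3.68 in crypt), Cnnm3 (3.47 and 3.63) and Ceacam1 (2.04 and 3.01) had the higher pooled fold enrichment in crypt. Abcb1a, the drug efflux pump, had 4.67, 4.59, 4.33 and 5.84 in colon, 7.45 in crypt replicate 1 alone and 4.17 in villus replicate 1 alone. Cnnm3, a magnesium transporter family member, had 3.62, 3.87, 3.38 and 3.99 in colon and 7.201 in crypt replicate 1 alone. At both, the single crypt call came from the sample that called 85.5% of all sites.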

How the data were processed

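VDR ChIP-seq (12 samples) and ATAC-seq (9 samples) peak lists were used as deposited, on mm9. According to the submitters' processing notes and the study's methods, the authors removed adapters (NGmerge for ChIP-seq in the methods, with cutadapt 1.9.1 also named in the notes), aligned reads with Bowtie2 2.2.6, handled alignments with SAMtools 0.1.19 and Picard 2.18.27, and called peaks with MACS2 2.1.0.20150731 at a q of 0.05 without an input control, per sample and on pooled samples. The deposited columns were pileup signal, -log10 of p and q, and fold enrichment over the local background. The fold is thus relative to the same sample, and regional effects of open chromatin or copy number are not removed. The authors also deposited differential regions (DiffBind) as positions. The deposited pooled intervals left out 999 of 23881 colon, 786 of 13488 SI crypt and 966 of 19044 SI villus peaks listed by MACS2. In the pooled ATAC-seq calls, reads were shifted by -78, -51 and -53 bp and extended by 157, 102 and 157 bp in colon, SI crypt and SI villus, so that peak edges are not placed alike.

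From these files, overlaps of at least 1 bp, distances to 1 TSS per protein-coding gene (NCBIM37 with GENCODE M1) and motif matches were computed in Python 3.11.15 with numpy 2.4.6 and scipy 1.17.1, and drawn with matplotlib 3.10.9. Overlap and motif steps were tested on simulated data (300 of 300 planted DR3 repeats recovered). Shares of ATAC-seq calls were compared by two-sided exact permutation tests over samples with Benjamini-Hochberg adjustment at a threshold of 0.05. No label ties a sample to an animal, so p-values measure only the spread between these samples, which may be technical. Genes named were those of highest -log10 q per list, best in all lists, with a full DR3, in a differential set, without ATAC-seq peak, nearest to the threshold, in a gene list, called in all samples, or of most unequal rank. The sites, the 18 gene lists and the tests were chosen with earlier results of these data known. Other thresholds, peak numbers, overlaps and omitted samples were tried as alternatives. Some genes that the naming rule covers, and 1 sequence, are not reported here.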

Additional observations from a re-analysis of the deposited data

Results flagged for a closer look

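SI crypt replicate 1 called 85.5% of the 2102 sites, far from the other 3 crypt samples, which called 7.94% to 20.8%. Of the 39 groups of 4 values looked at this was the only one with a sample so far from the rest. Chance alone would flag about 1 group in 20 if the groups were independent. All 39 were read from the same 12 samples, so the number of flags cannot show whether this sample is unusual. The reason for its high share was not tested.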

How the results depend on the processing

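A VDR -log10 q of at least 5 left 1354 sites, and a call in an SI crypt sample other than replicate 1 left 573, an alternative chosen after seeing the data. Among those 573 the sites higher in colon than SI crypt numbered 1, those higher in colon than SI villus 10 and those higher in villus than colon 26, and a full DR3 was found at 2.27%. Of the 18 gene list counts, 15 moved by more than 1.5 times under that limit. DR3 shares were 6.71% with 1 mismatch and 10.4% with up to 2 mismatches near the summit. The ATAC-seq share of the sites stayed above that of shared distal sites (11.2 points with the midpoint inside the peak, to 38.6 over 15 alternatives) and of promoters without VDR (17.6 points with the same setting, to 54.9 over 16), with adjusted exact permutation p from 0.00391 to 0.0117. The difference of colon minus SI villus changed sign to 4.15 with an ATAC-seq -log10 q of at least 5, 13.04 with the same number of strongest peaks, 1.3955 with the site midpoint inside the peak and 0.87 with the TSS within 500 bp, and ranged from -7.93 to 4.42 when 1 sample was left out. Colon minus SI crypt was -1.75 at the 573 sites, up to 15.7 with the same number of strongest peaks, and 1.66 to 4.73 with 1 sample left out, and SI crypt minus SI villus -11.1 to 1.24, with the positive value coming without SI villus replicate 1. The ATAC-seq rank difference was -0.78 with the same number of strongest peaks, 1.07 with the midpoint inside the peak, 0.99 at a VDR -log10 q of at least 5 and 0.60 at the 573 sites (exact permutation p = 0.566, 0.281, 0.102 and 0.473), and 2.87 to 3.66 with 1 sample left out. The causes were not tested. Mean VDR calls with 1 sample left out were 30.4% to 47.8% in colon, 15.1% to 40.9% in crypt and 33.1% to 52.5% in villus. Same-numbered ATAC-seq samples did not deviate together (9 correlations from -0.07 to 0.08), and with the replicate number as a block the differences of 3.17, -0.59 and -3.76 had exact permutation p of 0.5, 1 and 0.75, where 0.25 is the smallest possible. Peak numbers did not follow depth, since SI villus replicate 3 had 1535 VDR peaks from 12479695 filtered fragments, and a site not called in a sample is not shown to be unbound.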
